A study of Mus musculus with 6 samples.

Results

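The integrated stress response is represented here by 10 genes, *Atf4*, *Ddit3*, *Asns*, *Trib3*, *Chac1*, *Sesn2*, *Ppp1r15a*, *Psat1*, *Phgdh* and *Ddit4*. They were chosen by name, as Atf4 and genes that it is known to control, and all 10 were found by symbol among the 17348 genes of the table. Cortices of mouse embryos at E18.5, shortly before birth, were compared between *Ybx1* cKO embryos, 3 libraries, and control littermates (Ctrl), 3 libraries. The cKO embryos were *Nestin-Cre, Ybx1 fl/fl*, in which Cre acts in the nervous system and removes floxed exons of *Ybx1*, so that cells of other lineages in the tissue can keep the gene. The labels give the control genotype as WT, and the study's methods for RNA sequencing also call the control littermates wild type. Elsewhere the study names *Ybx1 fl/fl* littermates without Cre as its controls. The floxed line was made on C57BL/6J. The sex of the embryos is not given in the labels.

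When eIF2, the factor that brings the initiator tRNA to the ribosome, is phosphorylated on its alpha subunit, the exchange factor eIF2B is blocked and most translation slows. Translation of the *Atf4* mRNA then rises, because short upstream reading frames hold it back in unstressed cells, and Atf4 protein turns on genes of amino acid synthesis and transport, of glutathione and redox balance, and of cell death. The main step is therefore one of translation, which mRNA sequencing does not measure, while the mRNAs of the target genes are a common readout of it. Ybx1 is an RNA-binding protein and reader of m5C, and the comparison asks whether its loss in the cortex went with such a readout.

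In the GENCODE M21 annotation of GRCm38 the group is spread over several chromosomes. *Atf4* lies at chr15:80255184-80257541, *Asns* at chr6:7675169-7693254, *Ppp1r15a* at chr7:45522916-45526268, *Sesn2* at chr4:132492032-132510501, *Psat1* at chr19:15904678-15947337 and *Phgdh* at chr3:98313170-98339990. Chromosome 2 holds *Trib3* (152337422 to 152344032) and *Chac1* (119351229 to 119354381), and chromosome 10 holds *Ddit3* (127290774 to 127296288) and *Ddit4* (59949669 to 59951834).

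No tested gene of the group was called as higher or lower in cKO. Of the 9 genes with enough reads to test, 0 had an adjusted p under 0.05 (edgeR quasi-likelihood test, Benjamini-Hochberg adjustment over 13570 genes), where 10 genes, or 0.0737% of all those tested, did. At an unadjusted p under 0.05 the count was again 0 of 9, against 6.62% of all genes tested. DESeq2 also called 0 of 9 at either threshold, and edgeR's exact test and limma on TPM each called 0 after adjustment and 1 before it. Over all genes tested, DESeq2 called 98 after adjustment and 6.31% before it, and the exact test 97 and 6.57%. Limma on log2(TPM + 0.5) called 11 and 10.3%. The fold changes of the 9 genes lay between a log2 value of -0.33 for *Psat1* and 0.15 for *Asns*. Their median was -0.13, beside 0.0027 over all genes tested. Of the 9, 7 were below 0, as were 49.4% of all genes tested. Every one of the 9 intervals (95%) included 0. The tenth gene, *Trib3*, was too sparsely counted to be tested.

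Binding sites of Atf4 and related factors are known in promoters of this group, and matches to 4 published motifs were sought on both strands from 250 bases before to 50 bases after the transcription starts of RefSeq (GRCm38.p6). The motifs were the C/EBP-ATF response element (CARE, TGATGNAA), to which Atf4 binds with a C/EBP partner, the cyclic AMP response element (CRE, TGACGTCA), the E-box (CACGTG) and the ER stress element (ERSE, CCAAT and CCACG with 9 bases between them). A CARE match was present in 3 of the 10 genes and in 3.97% of the 32851 windows of the table. A CRE match was present in 1 of the 10 and in 1.79% of windows. The E-box, in 7.15% of windows, and the ERSE, in 0.119%, matched none of the 10. The matches are given here in capitals, on the strand of the gene and 5′ to 3′. By the RefSeq starts, the stretches end just before the start site in *Asns* and *Ppp1r15a*, lie farther upstream in *Chac1*, and begin just after the start in *Trib3*, where only the surrounding 30 bases are given. These starts are not those of the GENCODE coordinates above in every gene. The RefSeq start lies 45 bases inside the GENCODE gene in *Asns* and 13 bases inside it in *Chac1*, 28 bases before it in *Trib3*, and at the same base in *Ppp1r15a*. The *Psat1* windows searched lie 22278 and 22715 bases inside it.
Asns, chr6:7693210-7693309, minus strand: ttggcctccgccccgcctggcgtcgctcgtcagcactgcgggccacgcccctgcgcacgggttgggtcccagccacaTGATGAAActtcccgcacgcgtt
Chac1, chr2:119351003-119351102, plus strand: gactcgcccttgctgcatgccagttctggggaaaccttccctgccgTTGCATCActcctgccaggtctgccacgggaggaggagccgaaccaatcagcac
Trib3, chr2:152344028-152344057, minus strand: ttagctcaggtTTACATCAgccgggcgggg
Ppp1r15a, chr7:45526269-45526368, minus strand: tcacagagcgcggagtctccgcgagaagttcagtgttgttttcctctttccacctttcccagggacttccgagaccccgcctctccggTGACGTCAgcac

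In *Chac1* and *Trib3* the CARE lies on the opposite strand, so that its reverse complement is seen. The *Asns* match begins 23 bases before the RefSeq start, the *Chac1* match 193 bases before it and the *Ppp1r15a* CRE 12 bases before it. A match is a description of the sequence only. Of these 4 genes, *Asns*, *Chac1* and *Ppp1r15a* were tested, and none had an adjusted p under 0.05 in the cKO cortex, as their values below show. *Trib3* was not tested.

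The libraries held 15091951 to 16885451 estimated counts. At these totals 3 counts, taken as the floor of detection, are worth 0.176 to 0.205 CPM (counts scaled to the library total, which the TMM method adjusts), which covers counting error only. *Ybx1* itself checked the labels. Its CPM was 1015, 1297 and 956 in Ctrl replicates 1 to 3 and 24.0, 24.8 and 24.9 in cKO replicates 1 to 3, or 2.25% of the control mean in cKO. Markers of cortical neurons were counted in all libraries, with a summed TPM (transcript share scaled by length) of 5630 to 6071 in Ctrl and 5134 to 5780 in cKO, and 4 markers of the choroid plexus together reached at most 0.5 TPM. Ctrl replicate 2 stood apart, with a median absolute log2 difference of 0.273 to 0.354 from every other library, where pairs among the other 5 libraries differed by 0.096 to 0.184. Without it, the count of called genes among the 9 was still 0 at both thresholds. Their median log2 fold change was then -0.02, with 4 of the 9 above 0. Over all genes, leaving out Ctrl replicate 2 gave 122 with an adjusted p under 0.05 and 12.1% with an unadjusted p under 0.05. Labels do not say whether 1 library is 1 embryo, so the p-values measure the spread between these libraries. In bulk tissue, fewer cells of a type and less RNA per cell cannot be told apart.

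Ordered by length-scaled level in Ctrl, *Atf4* stood first, with 168 ± 19.2 TPM (SD, n = 3). *Ddit4* followed with 96.6 ± 6.81 TPM. *Phgdh*, at 63.9 ± 20.5 TPM, and *Psat1*, at 57.6 ± 10.2 TPM, overlapped in their libraries. The next pair, *Ddit3* at 35.2 ± 4.13 TPM and *Asns* at 29.4 ± 1.92 TPM, overlapped as well. *Ppp1r15a* had 14.3 ± 1.86 TPM, *Sesn2* 2.54 ± 0.41 TPM, *Chac1* 1.66 ± 0.535 TPM and *Trib3* 0.143 ± 0.101 TPM. Other neighbours in this order did not overlap in their Ctrl libraries. The transcription factor at the head of the response was thus the most abundant mRNA of the group in control cortex, and *Chac1* and *Trib3*, genes often used as markers of acute stress, were at the bottom.

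**Figure D1:**
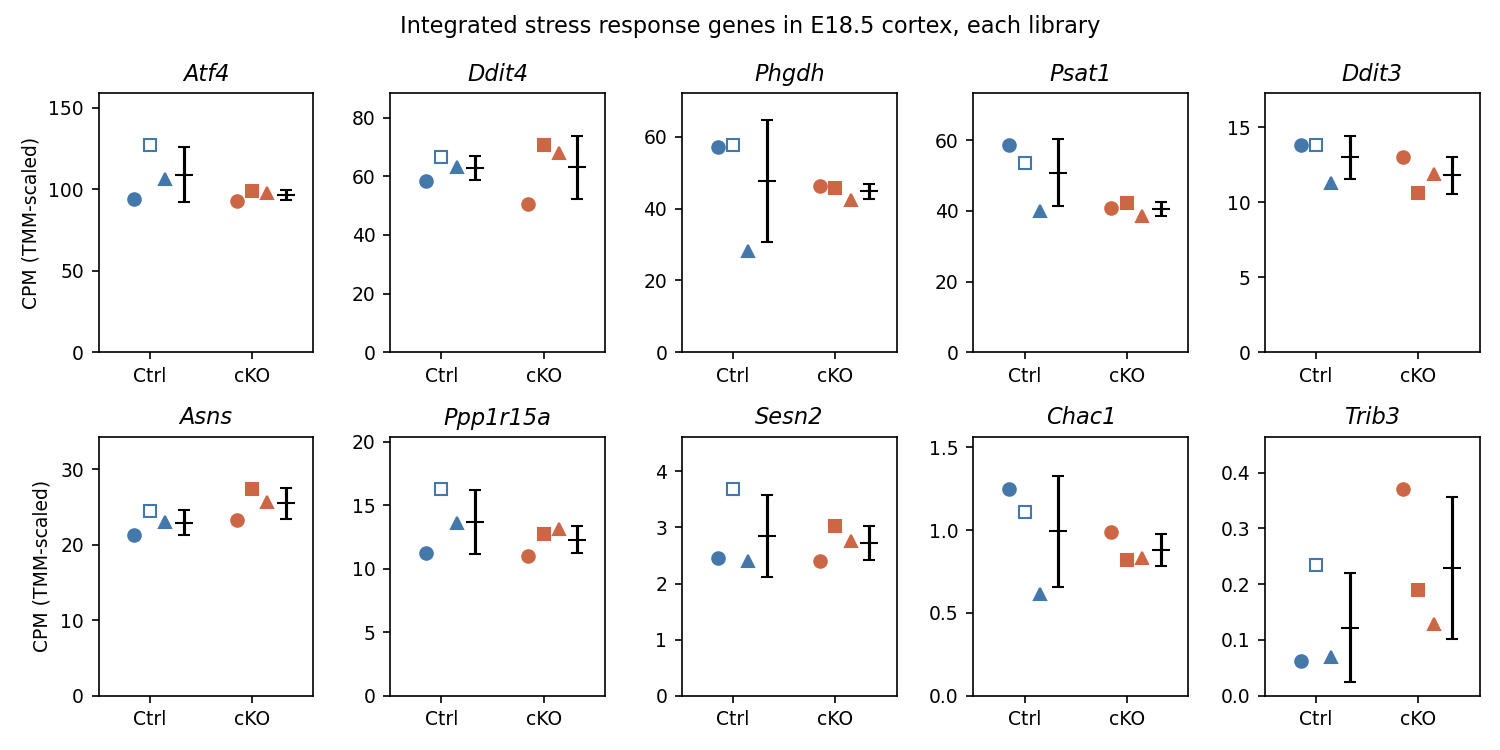
Level of each of the 10 genes in every library, in CPM on a linear axis from 0, with Ctrl in blue and cKO in orange (circle, replicate 1; square, replicate 2; triangle, replicate 3; Ctrl replicate 2, which stood apart, is open) and mean ± SD in black (n = 3). The 2 groups overlap in every panel, and Ctrl replicate 3 is low for *Phgdh* at 28.1 CPM.

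*Atf4*, the transcription factor of the response, had 93.7, 127 and 106 CPM in Ctrl replicates 1 to 3 and 92.9, 98.8 and 97.5 CPM in cKO replicates 1 to 3. The groups overlapped, and the highest value was that of Ctrl replicate 2, the library that stood apart. The log2 fold change, cKO over Ctrl, was -0.18 (SE 0.128, 95% interval -0.47 to 0.11) with an adjusted p of 0.854 (edgeR). The interval corresponds to 0.723 to 1.08 times the control level. It was -0.05 without Ctrl replicate 2 and -0.28 without Ctrl replicate 1 (unadjusted p = 0.0747, edgeR).

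*Ddit3*, which encodes CHOP, the factor that links prolonged stress to cell death, had 13.8, 13.8 and 11.3 CPM in Ctrl and 13.0, 10.6 and 11.9 CPM in cKO. The ranges overlapped. Its log2 fold change was -0.13 (SE 0.152, 95% interval -0.48 to 0.21), with an adjusted p of 0.9 in edgeR. *Ppp1r15a* encodes GADD34, the inducible subunit that directs a phosphatase to eIF2 alpha and so ends the response. It had 11.2, 16.3 and 13.6 CPM in Ctrl and 11.0, 12.7 and 13.1 CPM in cKO, again with Ctrl replicate 2 highest. Its log2 fold change was -0.16 (SE 0.17, 95% interval -0.54 to 0.22), and the adjusted p in edgeR was 0.895. The value was -0.0164 without Ctrl replicate 2 and -0.29 without Ctrl replicate 1.

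*Trib3*, a pseudokinase and feedback inhibitor of Atf4, was counted 1, 4 and 1 times in Ctrl and 6, 3 and 2 times in cKO. These counts are at or near the floor of 3 in both groups, so no fold change is given and a difference was not detectable at this depth. *Chac1*, which degrades glutathione, had 20, 19 and 9 counts in Ctrl and 16, 13 and 13 in cKO, or 1.25, 1.11 and 0.617 CPM and 0.991, 0.818 and 0.83 CPM. All cKO libraries lay inside the range of the controls. Its log2 fold change of -0.19 (SE 0.333) had the widest interval of the group, -0.94 to 0.57, which is 0.522 to 1.48 times the control level, with an adjusted p of 0.927 in edgeR.

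*Sesn2*, a leucine sensor that restrains mTORC1, had 2.45, 3.69 and 2.4 CPM in Ctrl and 2.41, 3.02 and 2.75 CPM in cKO. All cKO libraries fell within the Ctrl range, whose top was Ctrl replicate 2. The log2 fold change was -0.07 (SE 0.243, 95% interval -0.62 to 0.48) with an adjusted p of 0.967 in edgeR, and it was 0.17 without Ctrl replicate 2. *Ddit4*, also called REDD1, restrains mTORC1 as well and responds to hypoxia and glucocorticoids. It had 58.4, 66.7 and 63.2 CPM in Ctrl and 50.7, 70.6 and 67.9 CPM in cKO. The cKO libraries thus lay on both sides of the controls, and the log2 fold change was 0.01 (SE 0.141, 95% interval -0.31 to 0.32) with an adjusted p of 0.995 in edgeR.

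The remaining 3 genes encode enzymes that make amino acids. *Asns*, asparagine synthetase, had 21.3, 24.5 and 23.0 CPM in Ctrl and 23.3, 27.4 and 25.7 CPM in cKO. Of the cKO libraries, 2 were above all controls and the third was not. The log2 fold change was 0.15 (SE 0.124, 95% interval -0.13 to 0.43), or up to 1.35 times the control level, with an adjusted p of 0.86 in edgeR. On the TPM scale its groups did not overlap, with 28.2, 28.4 and 31.6 TPM in Ctrl and 33.4, 38.9 and 36.5 TPM in cKO. *Asns* was the 1 gene of the 9 for which this held, where 21.6% of all genes tested did so on TPM. In CPM, 0 of the 9 genes and 14.3% of all genes had groups that did not overlap. TPM raised the median log2 fold change of all genes to 0.15, and relative to that shift the *Asns* value of 0.3 was again 0.15 (limma on log2(TPM + 0.5), unadjusted p = 0.0344, adjusted p = 0.468). On that scale 7 of the 9 genes were above 0, but relative to the median of all genes 8 of the 9 were below it and *Asns* alone was above.

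*Phgdh* and *Psat1* encode consecutive enzymes of serine synthesis, and *Phgdh* is known to be enriched in radial glia and astrocytes. *Psat1* had 58.6, 53.5 and 40.1 CPM in Ctrl and 40.8, 42.3 and 38.5 CPM in cKO. Its log2 fold change, -0.33 (SE 0.146, 95% interval -0.66 to 0.01), was the lowest of the group and had an unadjusted p of 0.0535 and an adjusted p of 0.763 in edgeR. *Phgdh* had 57.2, 57.7 and 28.1 CPM in Ctrl and 46.4, 45.8 and 42.5 CPM in cKO, with a log2 fold change of -0.09 (SE 0.239, 95% interval -0.63 to 0.45) and an adjusted p of 0.953. For both genes the cKO libraries lay close together, and Ctrl replicate 3 was the lowest control.

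Against the other controls, Ctrl replicate 3 was lower by a log2 difference of -1.02 for *Phgdh* and -0.48 for *Psat1*. The 10 markers of radial glia and the astrocyte lineage, summed, gave 2183, 1772 and 1494 TPM in Ctrl replicates 1 to 3 and 2057, 1723 and 1716 TPM in cKO, so that Ctrl replicate 3 was lowest there too. All 10 of these markers were tested, and none is at 0 in every library. Their log2 fold changes ran from -0.38 for *Gfap* to 0.74 for *Aqp4*, with 5 above 0 and 5 below. None had an adjusted p under 0.05 (edgeR). At an unadjusted p under 0.05, 2 were higher and 0 were lower in cKO, beside 426 and 473 of all 13570 genes. The part of these markers in the levels of *Phgdh* and *Psat1* was not tested. With Ctrl replicate 3 left out, the log2 fold change was -0.47 for *Psat1* (unadjusted p = 0.00273, adjusted p = 0.207, edgeR). That of *Phgdh* was -0.36 (unadjusted p = 0.0102, adjusted p = 0.269, edgeR). With Ctrl replicate 1 left out instead, *Psat1* was at -0.21 (unadjusted p = 0.217, edgeR) and *Phgdh* at 0.0624, and *Phgdh* was at 0.0689 without Ctrl replicate 2, so the sign for *Phgdh* turns with the control left out. Without Ctrl replicate 3, 14.0% of all genes had an unadjusted p under 0.05, more than the 6.62% with all libraries. The third enzyme of the route, *Psph*, named after its values were seen, had 171, 189 and 109 counts in Ctrl and 162, 171 and 136 in cKO, with a log2 fold change of 0.01 and again the lowest control in replicate 3.

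**Figure D2:**
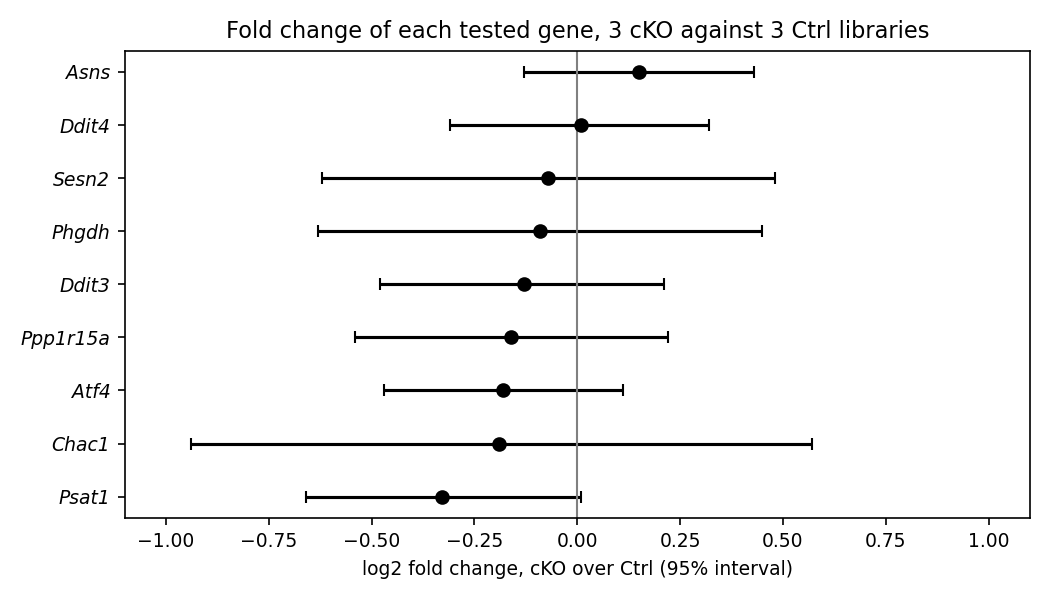
Log2 fold change, cKO over Ctrl, of the 9 tested genes on the horizontal axis, with dots for the edgeR estimate and bars for its 95% interval (n = 3 per group). Every bar crosses 0, and the bars of *Chac1*, *Sesn2* and *Phgdh* are the widest.

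The upstream and downstream parts of the response were read from 7 further lists that share no gene with the 10, in all 86 genes of which 79 were tested. Only *Eif2s3y*, a Y-linked gene, had an adjusted p under 0.05 (edgeR), and their median log2 fold change was 0.00. At an unadjusted p under 0.05, 1 of the 79 was higher and 5 were lower in cKO, beside 426 and 473 of all 13570 genes.

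The kinases that phosphorylate eIF2 alpha were tested together with *Gcn1*, the activator of Gcn2. None of the 5 genes passed at either threshold in edgeR, and their median log2 fold change was 0.02. *Eif2ak3*, which encodes the ER kinase Perk, had the highest value, 0.22 (95% interval -0.05 to 0.49), with 50.7, 42.5 and 42.8 CPM in Ctrl and 58.0, 49.4 and 51.2 CPM in cKO, which overlapped. *Gcn1* had the lowest, -0.13. The values were 0.05 for *Eif2ak4*, which encodes Gcn2, the sensor of uncharged tRNA, 0.02 for the heme-regulated kinase *Eif2ak1* and -0.01 for *Eif2ak2*, the kinase activated by double-stranded RNA. A list of 6 genes held phosphatases that act on eIF2 alpha, their regulators and, from the kinase side, *Dnajc3*, an inhibitor of Perk. None of the 6 passed at either threshold, and their log2 fold changes ran from -0.26 for *Ppp1ca*, a catalytic subunit, to 0.34 for *Dnajc3*.

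Among 9 subunits of eIF2 and eIF2B, the gamma subunit of eIF2 differed in its source. *Eif2s3y*, its Y-linked copy, had 1422, 1756 and 1594 counts in Ctrl and 1, 0 and 0 in cKO, at least 532-fold lower in cKO when 3 counts in each cKO library are taken as the floor (adjusted p = 4.57e-07, edgeR). *Eif2s3x*, the X-linked copy, had 318, 288 and 330 CPM in Ctrl and 423, 479 and 477 CPM in cKO. All cKO libraries lay above all controls, and the log2 fold change was 0.56 (SE 0.112, 95% interval 0.3 to 0.81), with an unadjusted p of 0.000772 and an adjusted p of 0.214 in edgeR's quasi-likelihood test and an adjusted p of 0.00141 in DESeq2. Without Ctrl replicate 2 the quasi-likelihood test gave an adjusted p of 0.0273. Both copies may share reads where their sequences are alike, so their split is uncertain. Together they gave 313, 278 and 355 TPM in Ctrl and 304, 342 and 342 TPM in cKO, which overlapped. Since a Y-linked transcript was present in all controls and near 0 in all cKO libraries, sex and genotype cannot be told apart for any gene here.

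The alpha subunit that the kinases phosphorylate, *Eif2s1*, had a log2 fold change of 0.15 (95% interval -0.08 to 0.37), and the beta subunit *Eif2s2* one of 0.1 (95% interval -0.12 to 0.31). The 5 subunits of eIF2B lay between -0.38 and -0.07. The lowest was *Eif2b4*, with 36.9, 53.8 and 34.9 CPM in Ctrl and 31.4, 32.4 and 32.9 CPM in cKO, an unadjusted p of 0.0485 and an adjusted p of 0.748 in edgeR. Its highest value was again in Ctrl replicate 2.

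Transcription factors that act with or after Atf4 were tested in 5 of 9 cases, and none passed at either threshold in edgeR. *Creb3l2*, an ER-bound factor, had the highest log2 fold change, 0.49 (unadjusted p = 0.0502, adjusted p = 0.753), with 250, 144 and 159 counts in Ctrl and 294, 238 and 252 in cKO. *Atf5*, whose mRNA is translated under stress like that of *Atf4*, had the lowest, -0.27. *Cebpg*, a binding partner of Atf4, had 0.25 and *Nfe2l2*, the factor of the oxidative stress response, 0.18. *Atf3*, *Cebpb* and *Nupr1*, which stress strongly induces, were below the filter on low counts. *Atf3* had 6, 7 and 8 counts in Ctrl and 15, 7 and 12 in cKO, *Cebpb* 5, 9 and 3 and then 5, 11 and 7, and *Nupr1* 3, 3 and 1 and then 7, 4 and 2. Each of the 3 overlapped between the groups.

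Target genes were counted in 3 lists. In the first, 16 genes of amino acid synthesis and one-carbon metabolism, 0 were called after adjustment and the median log2 fold change was -0.12. At an unadjusted p under 0.05, 0 were higher and 2 were lower in cKO, beside 426 and 473 of all 13570 genes. *Pycr1*, an enzyme of proline synthesis in mitochondria, had 295, 323 and 250 counts in Ctrl and 166, 211 and 197 in cKO, which did not overlap (log2 fold change -0.59, SE 0.144, unadjusted p = 0.00257, adjusted p = 0.384, edgeR). *Mthfd2*, an enzyme of the mitochondrial folate cycle named after its values were seen, had 10.6, 10.5 and 9.25 CPM in Ctrl and 7.49, 7.99 and 6.77 CPM in cKO. It did not overlap either (log2 fold change -0.45, SE 0.153, unadjusted p = 0.0164, adjusted p = 0.588, edgeR). The highest value of the list was 0.11, for *Bcat1*, which begins the breakdown of branched-chain amino acids.

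In the second list, none of 11 amino acid transporter genes passed at either threshold, and their log2 fold changes ran from -0.23 for *Slc7a11*, the cystine-glutamate exchanger, to 0.22 for *Slc6a9*, a glycine transporter, with a median of 0.05. In the third, 27 of 30 other Atf4 target genes were tested and 0 were called after adjustment, with a median of 0.00. *Bbc3*, which encodes the pro-apoptotic protein Puma and is also a p53 target, was the 1 gene of it with an unadjusted p under 0.05, at a log2 fold change of -0.72 (SE 0.229, unadjusted p = 0.0119, adjusted p = 0.554, edgeR). It had 285, 434 and 193 counts in Ctrl and 162, 197 and 187 in cKO, with Ctrl replicate 2 highest, and the groups overlapped in counts but not in CPM. *Gadd45a*, a growth arrest gene, had the highest value, 0.27. The list includes 12 aminoacyl-tRNA synthetase genes, which ran from -0.28 to 0.07 with 0 called at either threshold.

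**Figure D3:**
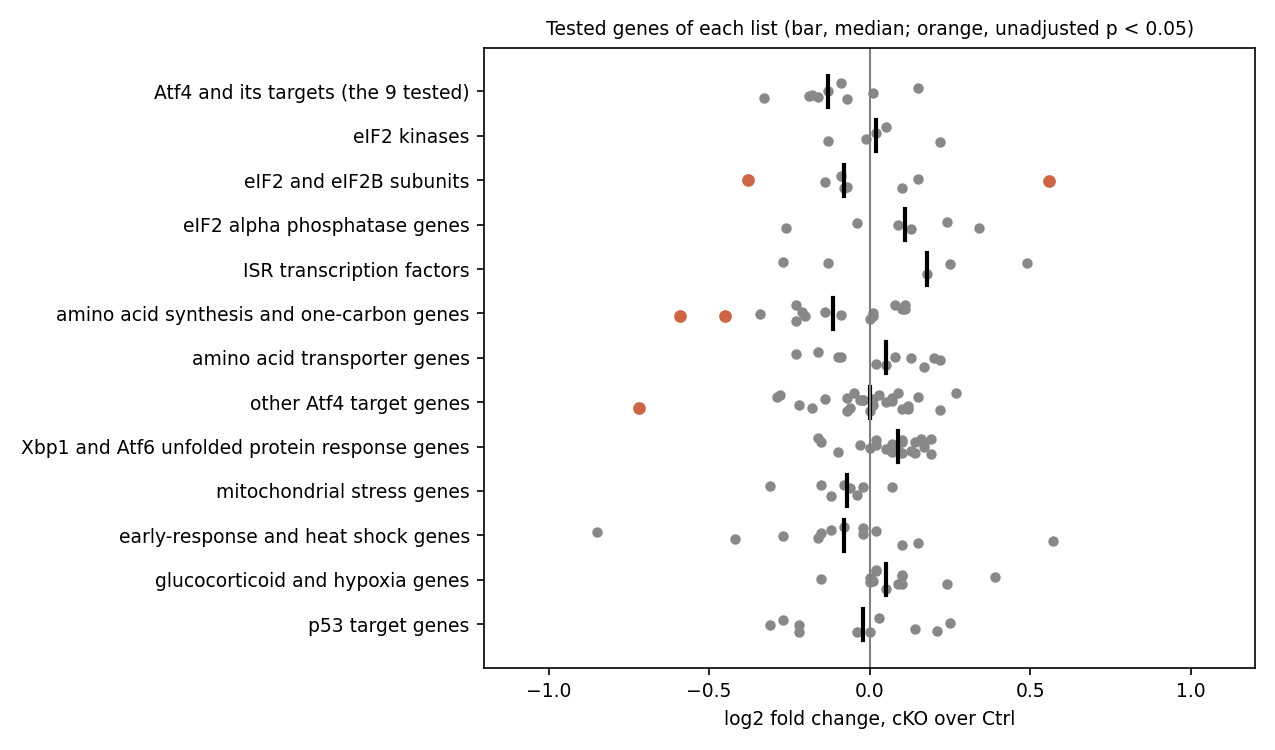
Log2 fold change, cKO over Ctrl, of every tested gene (dots) of the 9 tested Atf4 pathway genes, the 7 lists of the response and 5 lists of other stress programmes, with list medians as black bars and genes with an unadjusted p under 0.05 in orange; vertical scatter carries no value. *Eif2s3y* lies outside the axis on the left, list medians lie between -0.13 and 0.18, and *Pycr1*, *Mthfd2* and *Bbc3* are the orange dots of the target lists.

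Other stress programmes that share genes with this response, or induce its members by another route, were read in the same way, and 0 genes passed at either threshold in any of the 5 lists (edgeR). The 23 genes of the Xbp1 and Atf6 branches of the unfolded protein response had a median log2 fold change of 0.09, from -0.16 for *Sec61b* to 0.19 for the chaperone gene *Dnajb9*, and 19 of 23 were above 0, as were 6860 of all 13570 genes. The 8 genes of mitochondrial stress, which signals to eIF2 alpha through Dele1, had a median of -0.07, from -0.31 for *Hspe1* to 0.07 for *Dele1*. Of these 8, 7 were below 0, as were 6710 of all 13570 genes. The 13 tested early-response and heat shock genes had a median of -0.08, from -0.85 for *Hspa1a* to 0.57 for *Hspb1*, both sparsely counted, and 9 were below 0. The 13 tested glucocorticoid and hypoxia genes, programmes that also induce *Ddit4*, had a median of 0.05, from -0.15 for *Tsc22d3* to 0.39 for *Egln3*, and 12 were above 0. The 10 p53 target genes, a programme that also induces *Sesn2*, had a median of -0.02, from -0.31 for *Eda2r* to 0.25 for *Trp53inp1*, and 6 were below 0.

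The libraries of the 9 tested genes varied more in Ctrl than in cKO for 7 of the 9, by the SD of log2 CPM, and the same held for 77.0% of all genes tested. For *Atf4* the coefficient of variation of the CPM was 15.7% in Ctrl and 3.22% in cKO, and for *Phgdh* 35.6% and 4.6%. *Ddit4* went the other way, with 6.65% in Ctrl and 17.1% in cKO.

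**Figure D4:**
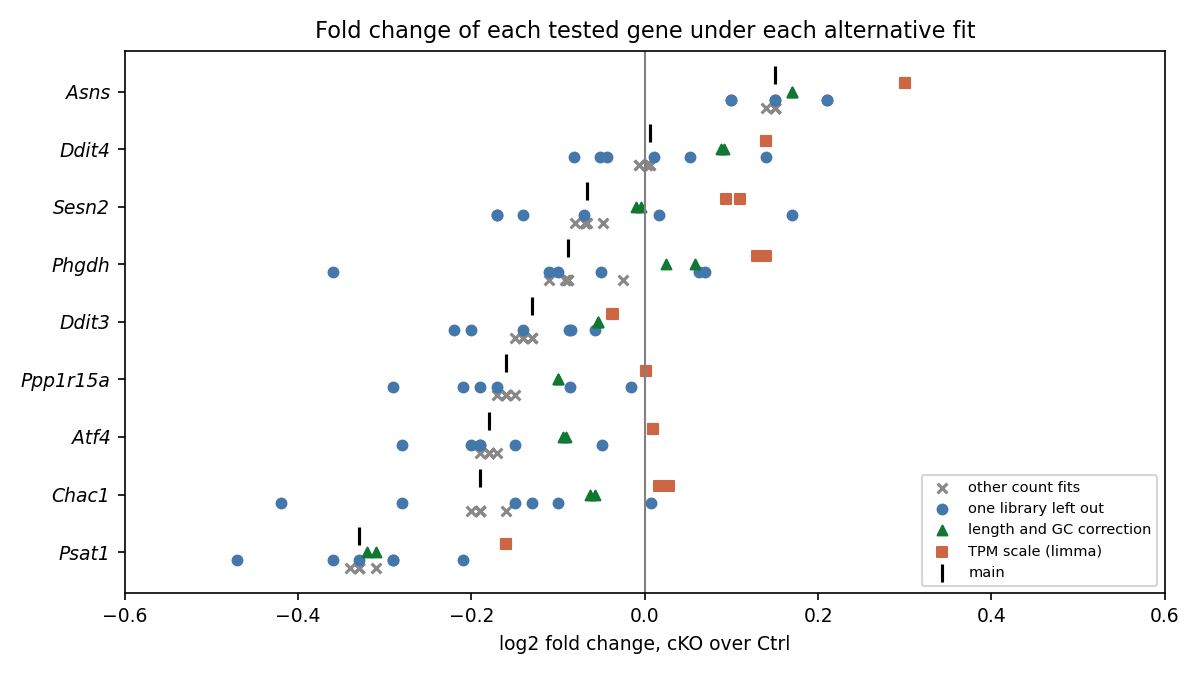
Log2 fold change, cKO over Ctrl, of the 9 tested genes in the reported edgeR comparison (black bars) and in 17 alternative fits (other symbols, by kind). No value exceeds 0.3 or falls below -0.47, and values on the TPM scale lie to the right because the median of all genes is 0.15 there.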

How the data were processed

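Cortical mRNA of E18.5 embryos was sequenced on the DNBSEQ platform. The table deposited by the authors gives estimated counts, TPM and FPKM per gene in each library (18 columns, all read) beside 6 columns of group averages, which were not used. The submitters' processing notes name HISAT2 2.2.1, Bowtie2 2.4.5, RSEM 1.3.1 and GRCm38 (mm10). Annotation and strandedness are not given in the sources used here, so reads of overlapping antisense genes cannot be told apart.

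The authors' estimated counts are not normalized, 89.4% of them are whole, and all were rounded. TPM values deposited by the authors served for levels between genes and one alternative, and their FPKM values were not used in a result. After filterByExpr and TMM scaling, edgeR 4.0.16 (R 4.3.3) compared the groups by its quasi-likelihood test without covariates, with calls at an adjusted p under 0.05 over 13570 genes. Each standard error is the fold change divided by the root of F. Permutation tests of single genes allow no p below 0.1 with 3 libraries against 3. Replicates of a group were no duplicates (chi-square per degree of freedom 3.52 to 65.4). The common biological coefficient of variation was 0.147, beyond counting error. The method was tested on simulated counts.

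Alternatives were DESeq2 1.42.0, edgeR's exact test, RLE factors, TMM without ribosomal protein and translation genes, other filters, limma 3.58.1 on log2(TPM + 0.5) or log2(TPM + 0.1), a length and GC correction (GENCODE M21, mgcv 1.9.3, values for 97.6% of genes and all 10 of the group), the replicate number as a block, and each library left out. All alternatives listed at the start were run and none was added later.

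The 10 genes, the lists, the motifs and the rule for naming genes were chosen with earlier results of these data known. Named are the 10 genes, *Ybx1*, *Eif2s3x* and *Eif2s3y*, any gene of lists of at most 9, and otherwise each list's called genes or its highest and lowest. *Batf2* and *Cdsn* were not in the table. *Psph* and *Mthfd2* were named after their values were seen.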

Additional observations from a re-analysis of the deposited data

How the results depend on the processing

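No gene of the group had an adjusted p under 0.05 in any of the 17 alternative fits, and the smallest adjusted p was 0.207, for *Psat1* without Ctrl replicate 3. Without 1 replicate the number of the 9 genes with an unadjusted p under 0.05 was 0 to 2, beside 3.57% to 14.0% of all genes. The number was 1 with RLE factors, the exact test, no filter, and after correcting for length and GC, blocked or not (*Psat1* in each), and 1 on the TPM scale with either pseudocount (*Asns*). The share of all genes was 6.66% with RLE factors, 6.57% in the exact test and 5.87% with no filter. It was 12.4% after correcting for length and GC, 14.0% when also blocked, and 10.2% or 10.3% on the TPM scale. Of the wider pathway genes, 1 was called, and 2 by DESeq2, the exact test and the GC-corrected fits, blocked or not, where *Eif2s3x* joined *Eif2s3y*. Leaving out 1 replicate gave 1 to 2. The cause of these differences was not tested.

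The labels do not say that replicate numbers pair the libraries, and the data do not settle it. Same-numbered libraries correlated by 0.088, 0.061 and 0.23 in their deviations from the group means, which is over 0.1 in 1 of 3 pairs, and the study speaks of 3 sequencing batches without saying which libraries they hold. With the replicate number as a block, 11 genes of the table were called in place of 10, and *Ddit4* was at -0.00617. In that fit 1 of the 9 genes (*Psat1*) and 7.62% of all genes had an unadjusted p under 0.05. Each Ctrl library correlated best with the cKO library of its own number, a hint from the data and not from the design. For Ctrl replicate 2 this was close to a tie, at 0.061 with cKO replicate 2 and 0.059 with cKO replicate 1.

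Some small log2 fold changes changed sign. On the TPM scale with a pseudocount of 0.1 or 0.5, *Atf4* was at 0.00975 or 0.00971, *Chac1* at 0.0282 or 0.016, *Sesn2* at 0.11 or 0.0935, *Ppp1r15a* at 0.00145 or 0.00127 and *Phgdh* at 0.14 or 0.13. That scale moves the median of all genes to 0.15, and relative to it (pseudocount 0.5) the 5 values are -0.14, -0.13, -0.06, -0.15 and -0.01, so none of the 5 changed sign against all genes. *Phgdh* was at 0.0243 when corrected for length and GC, and 0.0579 when also blocked, and *Ddit4* was at -0.007 with no filter. Without 1 replicate, *Chac1* ranged from -0.42 to 0.00714, *Sesn2* from -0.17 to 0.17, *Phgdh* from -0.36 to 0.0689 and *Ddit4* from -0.0815 to 0.14, and, with no change of sign, *Atf4* from -0.28 to -0.0493, *Ppp1r15a* from -0.29 to -0.0164, *Ddit3* from -0.22 to -0.0569, *Asns* from 0.1 to 0.21 and *Psat1* from -0.47 to -0.21. *Psat1*, *Ddit3* and *Asns* kept their direction in all 17. Calls over all genes depended on the method, with 98 by DESeq2, 97 by the exact test, 152 when corrected for length and GC, 162 when also blocked, 14 with no filter, 122 without Ctrl replicate 2 and 19 without Ctrl replicate 3. Depth limits *Trib3*, which no count fit with a filter could test, and *Chac1*, whose upper bound reached 1.88 times the control level without Ctrl replicate 1.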

Other observations

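*Fos*, an early-response gene, was counted 7, 19 and 124 times in Ctrl replicates 1 to 3 and 3, 16 and 97 times in cKO replicates 1 to 3. The groups overlapped (log2 fold change -0.42, SE 1.11, adjusted p = 0.953, edgeR), and the spread within each group, with coefficients of variation of 133% and 132% of the CPM, was far above that of *Atf4*. In both groups its counts rose from replicate 1 to replicate 3, and a link with sequencing batch was not tested. *Fos* was named as an example after its values were seen.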
